A study of Mus musculus with 6 samples.

Results

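Transcripts of 34 lysosomal genes were examined in mouse embryonic stem (ES) cells labelled as wild type or as lacking the G1 cyclins. The genes were taken by symbol from a list of lysosomal hydrolases, their activators, lysosomal membrane proteins and the MiT/TFE transcription factors, and all 34 were found among the 24043 gene rows of the deposited table. The list was drawn up with values of this same comparison known, so the differences of its members are given as a description and nothing is tested with them. The data were RNA-seq values in FPKM, fragment numbers scaled to the length of the gene and to the total of the library, from 3 libraries with the genotype label wild type and 3 libraries, called Q-KO in the labels, whose genotype is given as having no G1 cyclin. Both groups were grown in medium with LIF, PD184352 (a MEK inhibitor) and CHIR99021 (a GSK3 inhibitor), so every value below is from cells under both inhibitors. The labels do not name the ES cell lines, how many clones stand behind the Q-KO libraries, or whether replicates were separate cultures. How much of the spread between libraries is technical is therefore not known. Wild-type replicate 3 held Y-linked transcripts that were listed at 0 in the rest of its group, as given below.

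Lysosomes are acidic, membrane-bound compartments in which proteins, glycans, lipids and nucleic acids are taken apart by hydrolases that work at low pH. The proton pump (V-ATPase) acidifies the lumen, LAMP proteins line the inner face of the membrane, and most soluble hydrolases arrive from the Golgi by way of mannose 6-phosphate receptors. TFEB, TFE3 and MITF are basic helix-loop-helix factors that enter the nucleus when mTORC1 activity at the lysosome is low, and they bind a palindromic E-box known as the CLEAR element near the start sites of many lysosomal genes. In ES cells, nuclear TFE3 is known for its part in maintaining self-renewal, and folliculin with the Rag GTPases controls its location.

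The E-box core of the CLEAR element was looked for in promoter windows that run from 250 bases before to 50 bases after a start site, because the list shares a known class of regulators and its promoters were not used to choose it. The windows were those of RefSeq on GRCm38.p6, and 31 of the 34 genes had at least 1. The letters CACGTG, which read the same on both strands, were present for 11 of these 31 genes (35.5%), against 12.4% of the 8689 tested genes with a window and 7.15% of all 32851 windows. The longer palindrome TCACGTGA, which contains CACGTG, was present for 5 of 31 (16.1%), against 2.30% of tested genes with a window and 0.974% of all windows. GTCACGTG, counted on both strands and overlapping the other motifs, was present for 8 of 31 (25.8%), against 5.18% and 2.25%. A gene was counted if any of its windows matched, while the shares of all windows count single windows. As the CLEAR element is known from many lysosomal genes, a higher share in such a list could be foreseen. A match is a description of letters, not a site of binding, and the compared windows were not matched on base composition.

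Windows upstream of the start site are shown for 10 of the 11 listed genes with the letters, because the number and spacing of the matches differ between them. They are printed 5′ to 3′ on the gene's strand on GRCm38.p6, with CACGTG in capitals. Lamp1 held 4 matches in the 73 bases before its start, the most of any listed gene. Ctsd held 2, too far apart for a single stretch, so that 2 stretches are printed. Ctsa held a second match just after its start, which is not printed. Mfsd1, which is not on the list but passed the test described below, held 5.
Lamp1, chr8:13159088-13159160, plus strand: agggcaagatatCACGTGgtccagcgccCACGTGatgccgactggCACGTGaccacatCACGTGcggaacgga
Mcoln1, chr8:3500436-3500491, plus strand: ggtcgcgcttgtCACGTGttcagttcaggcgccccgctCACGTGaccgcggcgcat
Gla, chrX:134601182-134601244, minus strand: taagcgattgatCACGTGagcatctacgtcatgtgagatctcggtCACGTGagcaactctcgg
Cln3, chr7:126583340-126583397, minus strand: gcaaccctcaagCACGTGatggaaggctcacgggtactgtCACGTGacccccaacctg
Ctsd, chr7:142388055-142388077, minus strand: tccccCACGTGacctgtatccag
Ctsd, chr7:142387908-142387937, minus strand: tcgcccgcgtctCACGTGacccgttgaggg
Ctsa, chr2:164833749-164833772, plus strand: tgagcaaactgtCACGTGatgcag
Glb1, chr9:114401018-114401047, plus strand: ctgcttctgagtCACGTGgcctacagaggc
Naglu, chr11:101070009-101070038, plus strand: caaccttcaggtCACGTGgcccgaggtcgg
Gaa, chr11:119267811-119267840, plus strand: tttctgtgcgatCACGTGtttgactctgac
Ctsf, chr19:4855074-4855103, plus strand: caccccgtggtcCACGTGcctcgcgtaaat
Mfsd1, chr3:67582670-67582767, plus strand: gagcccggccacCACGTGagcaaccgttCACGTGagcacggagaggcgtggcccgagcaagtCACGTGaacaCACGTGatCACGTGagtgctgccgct

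**Figure D1:**
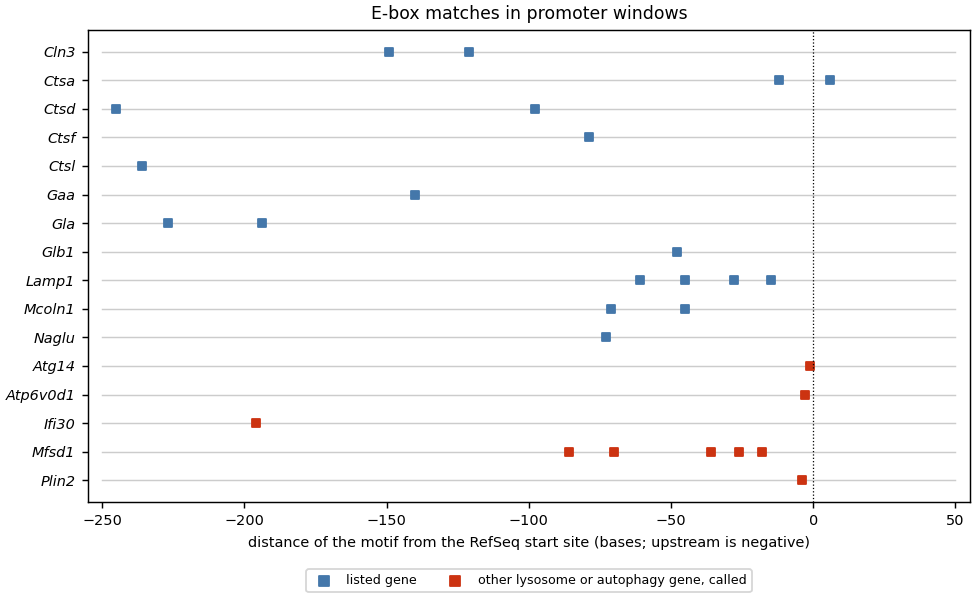
The plot places each CACGTG match by its distance in bases from the RefSeq start site, with 1 row per gene, for the 11 listed genes that hold the motif (blue) and the 5 other lysosome or autophagy genes that passed the test and hold it (red). In Lamp1 and Mfsd1 the 4 and 5 matches sit within 100 bases upstream of the start.

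The summed FPKM per library ranged from 525134 to 641715, and relative depth read from the lowest values lay at 1.10 to 1.22 times the depth of wild-type replicate 1. One library, wild-type replicate 3, differed from its group: Y-linked transcripts were present in it and in the 3 Q-KO libraries but listed at 0 for 5 of 5 genes in wild-type replicates 1 and 2, and its genes on chromosomes 8 and 11 were above those replicates by a median log2 difference of 0.25 on each, against -0.05 for genes off chromosomes 8, 11, X and Y. A model with a term for those transcripts, chosen after seeing the data, in effect sets the Q-KO libraries against wild-type replicate 3 only. Of the listed genes, Lamp1, Man2b1, Asah1 and Mcoln1 lie on chromosome 8, Grn, Gaa and Naglu on chromosome 11, and Gla, Lamp2 and Tfe3 on X. Of the G1 cyclins, Ccnd1 was at 21.1 to 40.6 FPKM in wild-type and 7.73 to 9.74 FPKM in Q-KO libraries, Ccnd3 at 53.4 to 141 and 8.29 to 13.2 FPKM, and Ccne2 at 6.19 to 7.94 and 2.82 to 3.12 FPKM. Against the label, Ccne1 was at 37.5 to 55.9 FPKM in wild-type and at 65.3 to 87.3 FPKM in the libraries labelled Q-KO, and Ccnd2 was under the filter on low values. Gene-level FPKM takes in exons outside a deleted part, so the deletion itself cannot be read from these values, and directions below are those of the libraries labelled Q-KO. The ES cell markers Pou5f1, Sox2 and Nanog were high in every library with a lowest value of 159 FPKM, for Sox2.

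Because lysosomal genes are abundant in macrophages and pigment cells, markers of other cells were read as well. Of 12 macrophage and leukocyte markers 11 were found by symbol, and 9 of these were under 1 FPKM in every library, with C1qb and C1qc at 0 throughout and Csf1r at 0.0222 FPKM at most. The summed level of these markers was 24.1 to 41.2 FPKM in wild-type and 48.8 to 70.7 FPKM in Q-KO libraries. Nearly all of it was Laptm5, itself a lysosomal membrane protein gene, at 40.6, 23.2 and 25.1 FPKM in wild-type against 59.1, 68.0 and 46.1 FPKM in Q-KO libraries. The other member above 1 FPKM was Fcer1g, at 0.284, 0.233 and 0.408 FPKM in wild-type against 1.27, 2.12 and 1.94 FPKM in Q-KO libraries, which passed the filter on low values through its Q-KO libraries. Of 6 melanocyte markers, Tyr, Tyrp1 and Dct were at or under 0.0461 FPKM, while Mlana went from 7.36, 5.14 and 4.62 to 12.9, 14.7 and 13.97 FPKM (limma adjusted p = 0.0154), and the summed level was 25.6 to 45.2 and 36.4 to 38.0 FPKM. The 10 fibroblast feeder markers summed to 1.88 to 3.56 FPKM in wild-type and 2.40 to 7.71 FPKM in Q-KO libraries, the highest being Q-KO replicate 1, in which Col1a1 reached 1.86 FPKM against at most 0.168 FPKM elsewhere. The 10 endoderm markers summed to 1.39 to 2.51 and 2.59 to 3.52 FPKM, with 8 of 10 under 1 FPKM in every library. Of these markers, Amn was at 0.173, 0.292 and 0.117 FPKM in wild-type against 0.717, 0.696 and 0.716 FPKM in Q-KO libraries. Dab2 was at 0.0534, 0.0703 and 0.123 FPKM against 1.24, 0.443 and 0.294 FPKM, and the ranges of the other endoderm markers overlapped. The part of Laptm5, Fcer1g, Mlana and the feeder and endoderm markers in the values below was not tested.

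Most of the listed genes were somewhat higher in the Q-KO libraries, and the differences were widest for the genes of GPNMB, cathepsin F, CLN6, prosaposin, progranulin and beta-glucuronidase. Summed over the 34 genes, the level was 1336, 1571 and 1435 FPKM in wild-type libraries 1 to 3 and 1671, 1945 and 2254 FPKM in Q-KO libraries 1 to 3 (means of 1447 ± 118 and 1957 ± 292 FPKM). Errors of means are SDs with n = 3 in each group throughout. As a share of all FPKM this was 0.238%, 0.279% and 0.254% in wild-type and 0.318%, 0.357% and 0.351% in Q-KO libraries. The lowest Q-KO library was above the highest wild-type library on both scales. Differences below are Q-KO minus wild-type on the log2(FPKM + 1) scale, from a limma fit across all genes, and they understate the change of genes with low values. The difference was above 0 for 26 of the 34 genes (76.5%) and for 59.3% of the 11573 genes tested, and the median was 0.31 for the list and 0.07 for all genes. With quantile normalization the median of all genes moved by -0.10, to -0.03, that of the list was 0.18, and 25 of the 34 genes stayed above 0. For 11 genes all Q-KO libraries were above all wild-type libraries, and for 1 gene all were below, where 18.2% and 9.44% of all genes tested did so (27.7% in either direction). An adjusted p under 0.05 was reached by 4 of the 34 genes, Psap, Grn, Cln6 and Gpnmb, all higher in Q-KO, beside 4.06% of all genes tested in either direction (3.04% higher and 1.02% lower). Of all genes passing that threshold, 74.9% were higher in Q-KO, against 61.8% with median-of-ratios scaling and 54.0% with quantile normalization. Leaving out wild-type replicate 1, or replicate 2 or replicate 3 of Q-KO, made this count 1, Gpnmb alone each time. All 34 genes passed the filter of a mean of 1 FPKM over the 6 libraries, but Gpnmb did so through its Q-KO values, and the wild-type mean of Naglu was also just under 1 FPKM. The sign of the difference turned under at least 1 alternative for Ctsb, Glb1, Gaa, Naglu, Neu1, Npc2, Scarb2, Cln3 and Tfe3. In bulk RNA, fewer cells of a type and less RNA per cell cannot be told apart. The RefSeq spans of 12 of the 34 genes overlap another gene, among them Ctsa, Npc1, Glb1, Hexa and Lamp2. As strand-specific counting is not stated in the sources used here, the values of these 12 are uncertain. The same holds for Ifi30 and Sidt2, called genes of the other lists below, whose spans also overlap another gene.

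**Figure D2:**
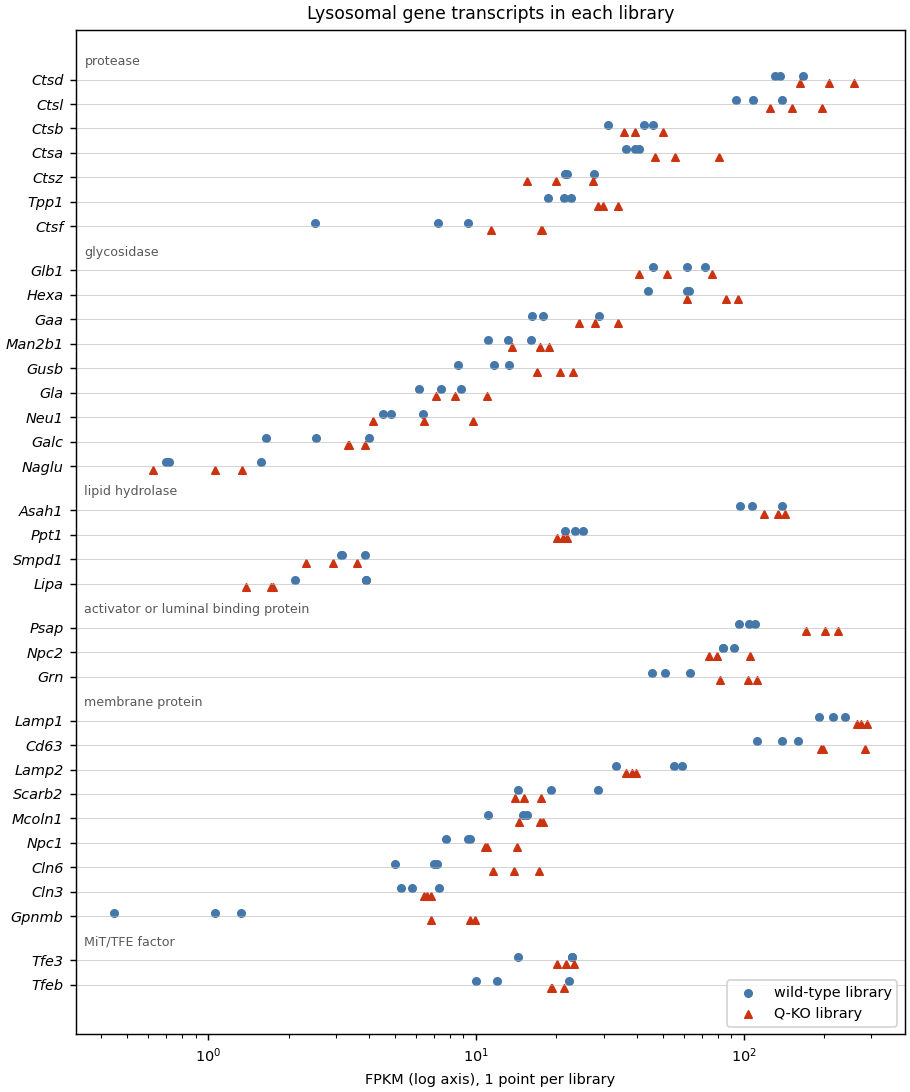
Each point is the FPKM of 1 library on a log axis, for the 34 genes by class, with wild-type libraries as circles and Q-KO libraries as triangles. The groups separate for Psap, Grn, Cln6, Gpnmb and 8 other genes, and Gpnmb has the widest gap, from at most 1.33 FPKM in wild-type to at least 6.80 FPKM in Q-KO libraries.

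Among the 3 activators and luminal binding proteins, Psap and Grn were higher in each Q-KO library and Npc2 was not. Their summed level was 245, 234 and 252 FPKM in wild-type and 327, 393 and 433 FPKM in Q-KO libraries, without overlap. Psap encodes prosaposin, the precursor of the saposins that present sphingolipids to their hydrolases. It was at 111, 96.5 and 105 FPKM in wild-type libraries 1 to 3 and 171, 201 and 224 FPKM in Q-KO libraries 1 to 3. Every Q-KO library was above every wild-type library, with a difference of 0.92 with an SE of 0.14. Grn encodes progranulin, a secreted and lysosomal glycoprotein cut into granulins, which travels to the lysosome with prosaposin or by sortilin. It was at 50.9, 45.7 and 63.0 FPKM in wild-type libraries 1 to 3 and 81.9, 112 and 104 FPKM in Q-KO libraries 1 to 3, a difference of 0.89 with an SE of 0.17. Without wild-type replicate 3, the highest wild-type library for this chromosome 11 gene, the difference was 1.01, while against it alone, with the Y-linked term, it was 0.63. The ratio of Grn to Psap within a library was 0.459, 0.473 and 0.599 in wild-type and 0.480, 0.557 and 0.462 in Q-KO libraries, with overlapping ranges. Npc2, the soluble protein that hands cholesterol to NPC1, differed from both, at 83.5, 91.9 and 83.9 FPKM in wild-type against 74.0, 79.9 and 105 FPKM in Q-KO libraries. Its groups overlapped (difference -0.02 with an SE of 0.16).

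Of the 9 membrane protein genes, 5 had all Q-KO libraries above all wild-type libraries, beside 18.2% of all genes tested, and 2 had lower means in Q-KO. Gpnmb, a transmembrane glycoprotein of lysosomes and melanosomes whose gene is a known MITF target, was at 0.445, 1.06 and 1.33 FPKM in wild-type libraries 1 to 3 and 6.80, 9.90 and 9.49 FPKM in Q-KO libraries 1 to 3. It had the lowest wild-type mean of the 34 genes, and its groups were far apart. Its means were 0.948 ± 0.456 FPKM in wild-type against 8.73 ± 1.69 FPKM in Q-KO libraries, a 9.21-fold ratio, and the difference was 2.33 with an SE of 0.23, the largest of the list. Mlana, a melanosomal gene, was also higher in the Q-KO libraries, as given above. Pmel, also of the melanocyte list, was at 12.5, 8.55 and 20.3 FPKM in wild-type against 9.12, 11.97 and 14.6 FPKM in Q-KO libraries. Its groups overlapped, with a difference of -0.14 with an SE of 0.29. Mitf encodes the melanocyte member of the MiT/TFE family. It was at 11.8, 11.9 and 20.3 FPKM in wild-type against 14.3, 10.5 and 9.37 FPKM in Q-KO libraries. Cln6, which encodes a protein of the endoplasmic reticulum that helps lysosomal enzymes leave it, was at 5.002, 7.14 and 6.99 FPKM in wild-type libraries 1 to 3 and 11.6, 13.9 and 17.3 FPKM in Q-KO libraries 1 to 3. Its groups did not overlap, and the difference was 1.04 with an SE of 0.19.

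Lamp1 and Cd63, the most abundant membrane protein genes of the list, were also higher in each Q-KO library. Lamp1, a heavily glycosylated lining protein of the lysosomal membrane, was at 191, 215 and 239 FPKM in wild-type libraries 1 to 3 and 264, 274 and 289 FPKM in Q-KO libraries 1 to 3 (difference 0.36 with an SE of 0.14). Wild-type replicate 3 was the highest wild-type library for Lamp1, on chromosome 8, and without it the difference was 0.44, while against it alone, in the model with the Y-linked term, it was 0.20. Cd63, a tetraspanin of late endosomes, lysosomes and exosomes, was at 112, 160.3 and 139 FPKM in wild-type libraries 1 to 3 and 194, 198 and 284 FPKM in Q-KO libraries 1 to 3 (difference 0.71 with an SE of 0.20). Npc1, the membrane partner of NPC2 in cholesterol export, was separated by a narrow gap, from 9.54 FPKM in the highest wild-type to 10.8 FPKM in the lowest Q-KO library (difference 0.39 with an SE of 0.16). Lamp2, the second LAMP protein and the receptor of chaperone-mediated autophagy in one of its isoforms, went the other way, at 33.3, 55.2 and 59.0 FPKM in wild-type against 36.4, 38.3 and 39.7 FPKM in Q-KO libraries (difference -0.32 with an SE of 0.21). Wild-type replicate 1 lay below all Q-KO libraries for Lamp2 and the other 2 wild-type libraries lay above them, so the groups overlapped. Scarb2, which encodes LIMP-2, a membrane receptor that carries an enzyme to the lysosome, was at 19.1, 28.5 and 14.4 FPKM in wild-type against 14.1, 17.5 and 15.2 FPKM in Q-KO libraries (difference -0.34 with an SE of 0.23). Wild-type replicate 2 was its highest library, without which the difference was -0.09. It was -0.56 without wild-type replicate 3 and turned to 0.10 with the Y-linked term. Mcoln1, the calcium channel TRPML1, was at 11.1, 15.6 and 15.1 FPKM in wild-type against 14.5, 17.4 and 17.8 FPKM in Q-KO libraries (difference 0.24 with an SE of 0.17). Cln3, a multispanning protein lost in juvenile Batten disease, was at 5.25, 5.76 and 7.27 FPKM in wild-type against 6.39, 6.57 and 6.79 FPKM in Q-KO libraries (difference 0.11 with an SE of 0.16). Both overlapped between groups.

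Of the 7 proteases, 3 had all Q-KO libraries above all wild-type libraries, beside 18.2% of all genes tested, and the median difference was 0.51. Summed over the class, wild-type libraries held 351, 446 and 368 FPKM and Q-KO libraries 426, 526 and 660.1 FPKM, so that Q-KO replicate 1 lay within the wild-type range. Ctsf, a cysteine cathepsin, was at 9.37, 7.22 and 2.51 FPKM in wild-type libraries 1 to 3 and 11.4, 17.6 and 17.7 FPKM in Q-KO libraries 1 to 3. Its groups did not overlap, with a difference of 1.28 with an SE of 0.38, the second largest of the list, but wild-type replicate 3 was far below the other wild-type libraries and without it the difference was 0.82. Against wild-type replicate 3 only, in the model with the Y-linked term, it was 2.21. Ctsa, the serine carboxypeptidase that also shields beta-galactosidase and neuraminidase, was at 36.5, 40.6 and 39.2 FPKM in wild-type libraries 1 to 3 and 46.8, 55.3 and 80.7 FPKM in Q-KO libraries 1 to 3 (difference 0.60 with an SE of 0.20). Tpp1, a tripeptidyl peptidase, was at 21.3, 22.7 and 18.6 FPKM in wild-type libraries 1 to 3 and 28.5, 33.8 and 29.9 FPKM in Q-KO libraries 1 to 3 (difference 0.54 with an SE of 0.14). Both separated without overlap, and without Q-KO replicate 3, its highest library, the difference of Ctsa was 0.39.

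The abundant cathepsins overlapped between groups. Ctsd, the main aspartic protease, was the second most abundant gene of the list in wild-type cells and was at 137, 167 and 131 FPKM in wild-type against 162, 208 and 259 FPKM in Q-KO libraries (difference 0.51 with an SE of 0.19). Only Q-KO replicate 1 fell inside the wild-type range of Ctsd. Ctsl, a cysteine endopeptidase, was at 93.9, 139 and 108 FPKM in wild-type against 126, 152 and 196 FPKM in Q-KO libraries (difference 0.47 with an SE of 0.21). Ctsb, a cysteine protease with carboxypeptidase activity, showed means of 39.96 ± 7.77 FPKM in wild-type against 41.7 ± 7.47 FPKM in Q-KO libraries and a difference of 0.06, which turned to -0.02 with median-of-ratios scaling and to -0.15 with the Y-linked term. Ctsz, a carboxypeptidase, was the 1 protease with a lower mean in Q-KO, at 23.7 ± 3.41 FPKM in wild-type against 20.9 ± 6.02 FPKM in Q-KO libraries. Within the Q-KO group, replicate 3 was the highest and replicate 1 the lowest library for Ctsa, Ctsb, Ctsd, Ctsl and Ctsz.

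Of the 9 glycosidases, 8 had a difference above 0, beside 59.3% of all genes tested. For 1 of them all Q-KO libraries were above all wild-type libraries, beside 18.2% of all genes. Gusb, beta-glucuronidase, which acts on glycosaminoglycans, was at 11.7, 13.3 and 8.60 FPKM in wild-type libraries 1 to 3 and 16.9, 20.6 and 23.0 FPKM in Q-KO libraries 1 to 3 (difference 0.80 with an SE of 0.19). Hexa, the alpha subunit of beta-hexosaminidase, was at 62.8, 61.7 and 43.8 FPKM in wild-type against 61.5, 85.8 and 95.6 FPKM in Q-KO libraries (difference 0.52 with an SE of 0.21). Q-KO replicate 1 of Hexa lay within the wild-type range and the other 2 Q-KO libraries above it. Gaa, acid alpha-glucosidase, which degrades lysosomal glycogen, was at 17.8, 16.2 and 28.8 FPKM in wild-type against 24.3, 34.1 and 27.9 FPKM in Q-KO libraries (difference 0.47 with an SE of 0.23). Its wild-type replicate 3 was above the other 2 by a log2 difference of 0.73, more than the 0.25 median of chromosome 11, and without it the difference was 0.71, while against it alone it was -0.01. Man2b1, lysosomal alpha-mannosidase on chromosome 8, likewise went from 0.28 with an SE of 0.18 to 0.41 without that library and to 0.03 against it alone. Glb1, beta-galactosidase, was the glycosidase with a lower mean in Q-KO, at 61.7, 71.8 and 46.0 FPKM in wild-type against 40.7, 51.6 and 75.9 FPKM in Q-KO libraries (difference -0.12 with an SE of 0.25). Its sign changed in the model with the Y-linked term (0.23), and also when wild-type replicate 2 (0.03) or Q-KO replicate 1 (0.09) was left out. Gla, alpha-galactosidase A, was at 7.43, 8.81 and 6.15 FPKM in wild-type against 7.08, 8.38 and 11.1 FPKM in Q-KO libraries (difference 0.21 with an SE of 0.20). Galc, galactosylceramidase, was at 2.53, 3.99 and 1.65 FPKM in wild-type against 3.35, 3.87 and 3.37 FPKM in Q-KO libraries (difference 0.33 with an SE of 0.24). Neu1, the lysosomal sialidase, was at 4.503, 6.38 and 4.82 FPKM in wild-type against 4.14, 6.40 and 9.79 FPKM in Q-KO libraries (difference 0.27 with an SE of 0.27). The ranges of these 3 genes overlapped between groups. Naglu, an enzyme of heparan sulfate breakdown, was near 1 FPKM in both groups, with 0.997 ± 0.503 FPKM in wild-type against 1.01 ± 0.360 FPKM in Q-KO libraries, and its difference of 0.02 became -0.02 and -0.28 with the 2 scalings.

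Of the 4 lipid hydrolases, 1 had a difference above 0, and their median was -0.15, the lowest of the 6 classes. Lipa, the acid lipase that frees cholesterol and fatty acids from lipoproteins, was the 1 listed gene for which every Q-KO library was below every wild-type library. It was at 2.12, 3.90 and 3.90 FPKM in wild-type libraries 1 to 3 and 1.39, 1.75 and 1.73 FPKM in Q-KO libraries 1 to 3 (difference -0.69 with an SE of 0.22), and the means had a ratio of 0.490. Wild-type replicate 1 was the library closest to the Q-KO values. Smpd1, acid sphingomyelinase, was at 3.17, 3.14 and 3.85 FPKM in wild-type against 2.32, 2.92 and 3.60 FPKM in Q-KO libraries (difference -0.16 with an SE of 0.18). Ppt1, a palmitoyl-protein thioesterase, was at 23.4, 25.1 and 21.6 FPKM in wild-type against 20.1, 21.9 and 21.2 FPKM in Q-KO libraries (difference -0.14 with an SE of 0.12). Both had lower means in Q-KO and overlapping ranges. Asah1, acid ceramidase, the most abundant lipid hydrolase gene, was at 96.8, 139 and 107 FPKM in wild-type against 119, 135 and 143 FPKM in Q-KO libraries (difference 0.22 with an SE of 0.16), with wild-type replicate 2 inside the Q-KO range.

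The MiT/TFE factors themselves had overlapping ranges in the 2 groups. Tfeb was at 22.4, 12.01 and 10.1 FPKM in wild-type against 19.3, 21.4 and 19.1 FPKM in Q-KO libraries (difference 0.48 with an SE of 0.26). Wild-type replicate 1 lay above all Q-KO libraries and wild-type replicates 2 and 3 lay below all of them, so the difference was 0.80 without wild-type replicate 1 and 0.26 without wild-type replicate 3. Tfe3 was at 23.0, 14.4 and 22.9 FPKM in wild-type against 21.7, 23.3 and 20.1 FPKM in Q-KO libraries (difference 0.13 with an SE of 0.19), and the difference turned to -0.08 without wild-type replicate 2 and to -0.08 with the Y-linked term. Transcript levels do not show where in the cell these factors are.

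**Figure D3:**
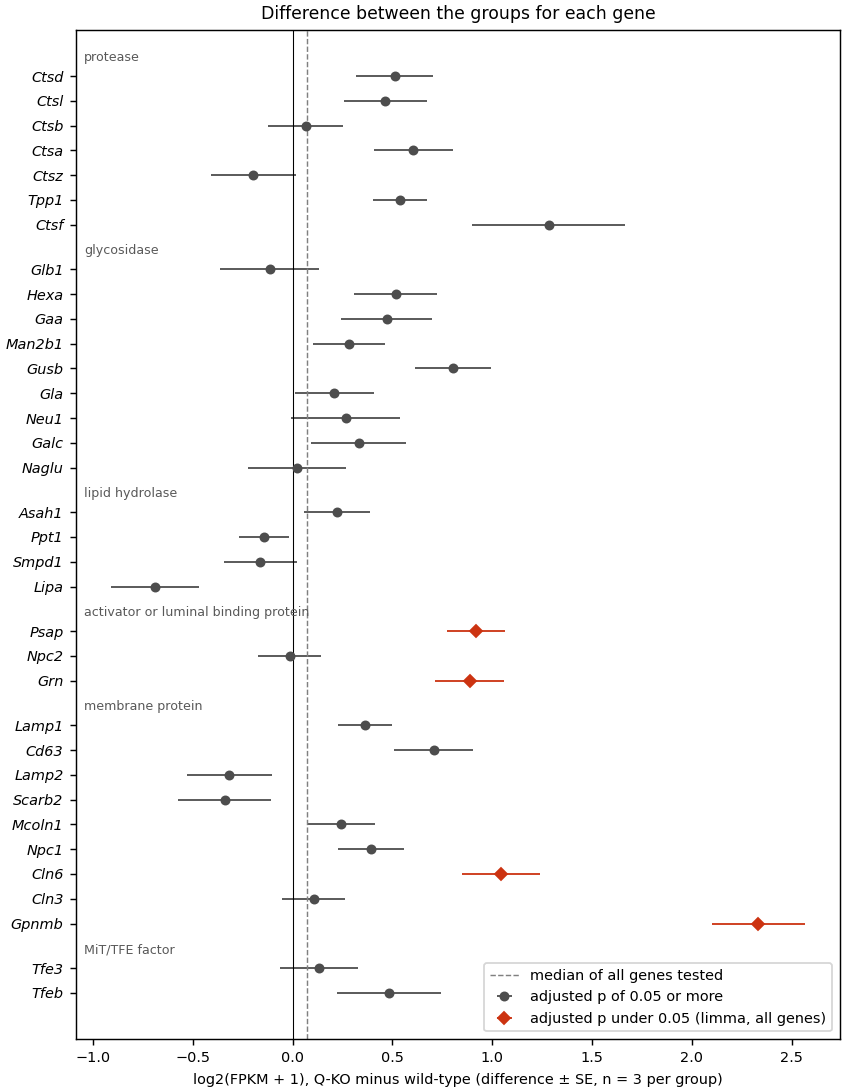
The plot gives, for each listed gene by class, the Q-KO minus wild-type difference of log2(FPKM + 1) with its SE (n = 3 per group), with a dashed line at the median of all genes tested (0.07). Psap, Grn, Cln6 and Gpnmb (diamonds) have an adjusted p under 0.05, which is a description here because the genes were chosen on this comparison.

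Ratios of 2 transcripts within a library do not depend on how libraries are scaled, and 8 were computed. The groups overlapped for Grn to Psap, given above, and for Grn to Sort1, progranulin and its receptor sortilin, at 21.8, 18.3 and 41.1 in wild-type against 20.8, 18.1 and 20.9 in Q-KO libraries. They separated for the other 6, of which 3 are given, and how often ratios of other gene pairs separate was not tested. The ratio of Lamp1 to Lamp2 was 5.72, 3.90 and 4.05 in wild-type and 7.27, 7.15 and 7.27 in Q-KO libraries. The Q-KO values were nearly equal to each other, and each was above every wild-type value. The ratio of Ctsa to Glb1, whose products share a complex, was 0.592, 0.565 and 0.853 in wild-type against 1.15, 1.07 and 1.06 in Q-KO libraries. The ratio of Psap to Npc2 was 1.33, 1.05 and 1.25 in wild-type against 2.30, 2.52 and 2.13 in Q-KO libraries, and both ratios separated without overlap. As these ratios use the values that chose the list, they carry no test, and an exact permutation test of 3 libraries against 3 could not go below 0.10.

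**Figure D4:**
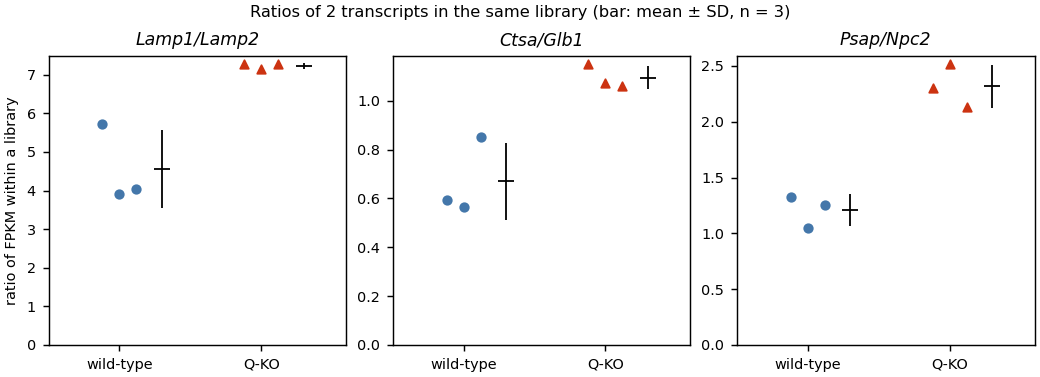
Each panel shows the ratio of the FPKM of 2 genes within each library, with 3 wild-type libraries (circles), 3 Q-KO libraries (triangles) and the mean ± SD beside them. In all 3 panels the lowest Q-KO ratio lies above the highest wild-type ratio.

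Other genes of the lysosome and of autophagy were not used by the rule for the 34 and are given with limma's test. They were 200 genes in 6 lists, also drawn up with earlier results of these data known, and 182 passed the filter. Of these, 10 rose and 1 fell (6.04%, beside 4.06% of all genes tested), with a median difference of 0.15 (0.07 for all genes). Above 0 were 131 of the 182, or 72.0%, beside 59.3% of all genes. With median-of-ratios scaling 114 were above 0 with a median of 0.08, and with quantile normalization 105 with a median of 0.07, where the medians of all genes were -0.01 and -0.03. An unadjusted p under 0.05 in the limma fit was reached by 50 of them, beside 2493 of the 11573 genes tested. The count of calls rested on single libraries: leaving out wild-type replicate 1, 2 or 3 gave 2, 10 or 15 calls, and leaving out replicate 1 or 3 of Q-KO gave 6 each. Without Q-KO replicate 2, limma called 0 of the 181 genes tested, 30 of them with an unadjusted p under 0.05 and none by adjusted p. Over all genes that fit gave 41 calls, with an unadjusted p under 0.05 for 1514 of 11512 genes.

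Of the other hydrolases, 1 of 32 tested rose and 1 fell (6.25%, beside 4.06% of all genes), with a median of 0.14. Ifi30, the lysosomal thiol reductase GILT, fell from 42.2, 48.6 and 53.8 to 20.8, 20.7 and 34.1 FPKM (difference -0.94 with an SE of 0.21, limma adjusted p = 0.0491). Of the 6 fits that left out 1 library, the call of Ifi30 held only without Q-KO replicate 3 (adjusted p 0.0341 to 0.217). Scpep1, a serine carboxypeptidase and the most abundant gene of this list without a call, was at 117 ± 8.55 FPKM in wild-type against 101 ± 13.5 FPKM in Q-KO libraries (limma adjusted p = 0.439).

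Of 20 tested proton pump genes, 1 rose and none fell, beside 4.06% of all genes in either direction, with a median of 0.33. Above 0 were 16 of the 20, beside 59.3% of all genes. Among the 16 was Atp6v0c, at 158, 175 and 5.65 FPKM in wild-type against 72.8, 111 and 94.6 FPKM in Q-KO libraries. Its difference of 0.70 with an SE of 1.10 was above 0 through wild-type replicate 3 only. Without that library, both wild-type values lay above all Q-KO values, and Atp6v0c was called. All Q-KO libraries were above all wild-type libraries for 10 of the 20, beside 18.2% of all genes. Atp6v0d1, the subunit that joins the membrane sector of the pump to its stalk, went from 38.1, 41.0 and 36.0 to 72.8, 71.0 and 67.5 FPKM (difference 0.86 with an SE of 0.12, limma adjusted p = 0.0116). The call was lost without Q-KO replicate 2 (adjusted p = 0.0879). Atp6v1f, the most abundant gene without a call, was at 149.7 ± 14.8 FPKM in wild-type against 183 ± 53.8 FPKM in Q-KO libraries (limma adjusted p = 0.513). Atp6v1a encodes the catalytic subunit and is named here with its values known. Its level was 64.9, 82.9 and 56.3 FPKM in wild-type against 114, 123 and 99.1 FPKM in Q-KO libraries (difference 0.72 with an SE of 0.17, limma adjusted p = 0.0596), and it passed the test without wild-type replicate 2 and with the Y-linked term.

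Of 29 other membrane protein genes, 3 rose and none fell (10.3%, beside 4.06% of all genes), with a median of 0.20. Mfsd1, a lysosomal transporter, went from 32.4, 35.8 and 32.0 to 57.9, 65.6 and 59.9 FPKM (difference 0.85 with an SE of 0.12, limma adjusted p = 0.0128). Its promoter window holds the 5 E-boxes shown above. Sidt2, a membrane protein linked to nucleic acid uptake into lysosomes, went from 7.62, 7.86 and 5.89 to 15.1, 17.8 and 12.9 FPKM (difference 1.00 with an SE of 0.17, limma adjusted p = 0.0221). Plin2 was placed in this list but coats lipid droplets rather than lysosomes, and it went from 20.4, 23.5 and 25.04 to 49.1, 64.1 and 73.9 FPKM (difference 1.39 with an SE of 0.17, limma adjusted p = 0.0101). All 3 calls were lost without Q-KO replicate 2 (adjusted p = 0.0964, 0.133 and 0.0688), those of Mfsd1 and Sidt2 also without wild-type replicate 1 (0.0566 and 0.073), and that of Sidt2 also without replicate 1 (0.0693) or replicate 3 (0.0524) of Q-KO. Cd164, the most abundant gene without a call, was at 84.1 ± 25.6 FPKM in wild-type against 98.1 ± 4.85 FPKM in Q-KO libraries (limma adjusted p = 0.519).

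In the lists for sorting and for mTORC1 at the lysosome, 1 gene of each rose and none fell. These were 3.33% and 3.23% of the genes tested, below the 4.06% of all genes. Sort1, the sortilin receptor that carries progranulin and prosaposin, went from 2.33, 2.496 and 1.53 to 3.95, 6.19 and 4.96 FPKM (difference 0.95 with an SE of 0.21, limma adjusted p = 0.0488), which was 1 of 30 tested with a median of 0.05. The call of Sort1 was lost in each of the 6 fits that left out a library (adjusted p 0.0574 to 0.221). Rragd, a Rag GTPase and a known MiT/TFE target, went from 7.07, 7.54 and 8.49 to 18.4, 15.95 and 14.5 FPKM (difference 0.99 with an SE of 0.15, limma adjusted p = 0.0147), which was 1 of 31 with a median of 0.09. Its call was lost without wild-type replicate 1, Q-KO replicate 1 or Q-KO replicate 2 (adjusted p = 0.0656, 0.0526 and 0.0941). The most abundant sorting gene without a call was Rab7, the late endosome GTPase, at 181 ± 26.2 FPKM in wild-type against 158 ± 15.2 FPKM in Q-KO libraries (limma adjusted p = 0.52). In the mTORC1 list it was Ywhag, a 14-3-3 protein, at 116 ± 12.9 FPKM in wild-type against 175 ± 32.9 FPKM in Q-KO libraries (limma adjusted p = 0.106).

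Of 40 autophagy genes, 3 rose and none fell, beside 4.06% of all genes in either direction, with a median of 0.17. Above 0 were 32 of the 40, beside 59.3% of all genes. Over all the other lists together, the count above 0 went from 131 to 105 of 182 genes with quantile normalization. Map1lc3a, an LC3 protein of the autophagosome membrane, went from 13.9, 15.6 and 16.2 to 27.9, 36.8 and 45.4 FPKM (difference 1.19 with an SE of 0.19, limma adjusted p = 0.0155). Atg14, the subunit that directs the PI3-kinase complex to autophagosome formation, went from 17.6, 19.6 and 13.3 to 35.8, 38.8 and 33.7 FPKM (difference 1.07 with an SE of 0.16, limma adjusted p = 0.0154). Atg16l2, a relative of the conjugation factor ATG16L1, went from 2.10, 1.78 and 2.39 to 4.40, 6.55 and 8.94 FPKM (difference 1.26 with an SE of 0.24, limma adjusted p = 0.0284). For all 3 genes every Q-KO library lay above every wild-type library, and all 3 calls were lost without wild-type replicate 1 (adjusted p 0.0592 to 0.0982) and without replicate 2 (0.099 to 0.144) or 3 (0.0544 to 0.0806) of Q-KO, that of Atg14 also without Q-KO replicate 1 (0.052) and that of Atg16l2 without wild-type replicate 2 (0.0595). Gabarapl2, the most abundant gene without a call, was at 179, 300.2 and 140.1 FPKM in wild-type against 402, 371 and 466 FPKM in Q-KO libraries (limma adjusted p = 0.0669), though it passed without wild-type replicate 2 and with the Y-linked term, and its value is uncertain because copies elsewhere in the genome may share its reads.

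**Figure D5:**
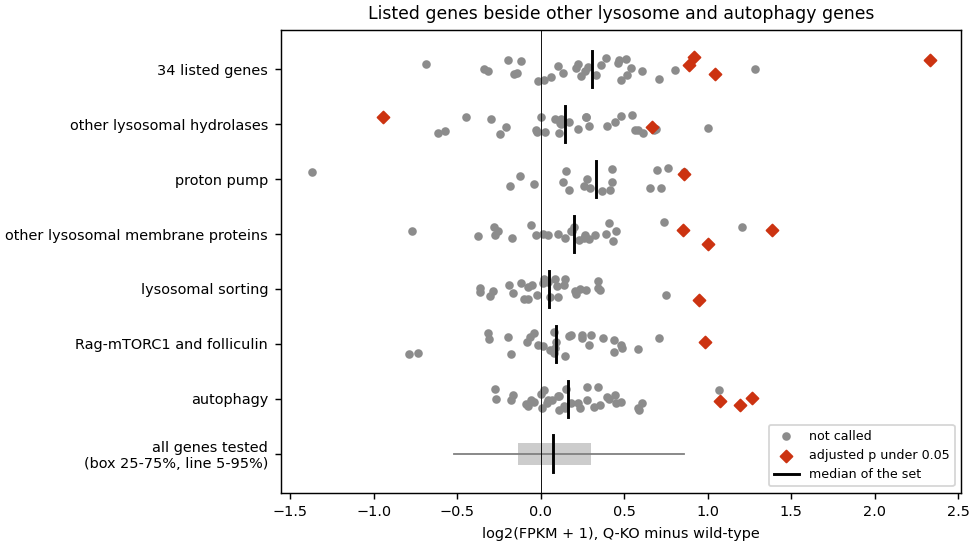
Each point is 1 tested gene by its Q-KO minus wild-type difference of log2(FPKM + 1), for the 34 listed genes and the 6 other lists, with a black bar at the median, and the last row gives the quantiles of all genes tested. The medians run from 0.05 for sorting genes to 0.33 for the proton pump, against 0.07 for all genes, and 14 of the 15 called genes lie to the right of 0.

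Promoter E-boxes and differences could then be set side by side. The 11 listed genes with CACGTG had a median difference of 0.36, with 10 above 0, and the 20 with a window but no match had a median of 0.31, with 13 above 0. None of the 11, and 4 of the 20, had an adjusted p under 0.05: Psap, Grn, Cln6 and Gpnmb had windows without these letters. Among the 11 other lysosome and autophagy genes called, 8 had a window and 5 of these held the motif: Atg14, Atp6v0d1, Mfsd1 and Plin2, which rose, and Ifi30, which fell. In Atg14, Atp6v0d1 and Plin2 the match lay across or within 4 bases of the start site. For the 161 of the 200 genes with a window the share was 22.4%.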

How the data were processed

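RNA-seq of 3 wild-type and 3 Q-KO libraries was analysed, with groups and replicate numbers from the sample titles. The authors deposited 1 table of FPKM values per gene symbol. The submitters' processing notes name STAR 2.5, Cufflinks, CASAVA, bcl2fastq 2.16 and the build mm9 without role or order (annotation, strand setting, read number: not given in the sources used here). Each FPKM is scaled by the total of its library, so a few abundant genes can shift all others. No counting interval is given, since the depth is unknown.

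After 1 stray header row was dropped, 24043 gene rows remained, of which 11573 had a mean of at least 1 FPKM. log2(FPKM + 1) was compared with limma 3.58.1 in R 4.3.3 (intensity trend, two-sided, Benjamini-Hochberg over all tested genes, threshold 0.05). On simulated libraries over 11416 genes this comparison found 6 of 48 genes made to differ 1.5-fold in FPKM + 1 and 32 of 49 at 2-fold. It found 46 of 47 at 4-fold and 48 of 48 at 8-fold. Of its 141 calls there, 9 were false. The simulation held no outlying library, and whether its shares of found genes and false calls hold for the deposited libraries was not tested. Promoter windows came from RefSeq on GRCm38.p6, matched by symbol, and no coordinate was carried between builds. Chromosomes, known for 10916 tested genes, and overlapping spans came from the same annotation.

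The 34 genes, the other lists and the tests were chosen with earlier results of these data known. Named genes were the 34, up to 4 called genes of each other list with the largest difference, the most abundant gene of each list without a call, and the G1 cyclins. Some genes are not reported here. A planned description of protein sorting signals was not run, as protein sequences were not used here. Alternatives were another pseudocount, no filter, 2 scalings, no intensity trend, the replicate block, leaving out each library, and a term for Y-linked transcripts.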

Additional observations from a re-analysis of the deposited data

How the results depend on the processing

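Leaving out each library in turn gave 41 to 648 calls over all genes (470 with all 6), 0 to 15 among the other lysosome and autophagy genes (11 with all 6) and 1 to 4 among the 34 listed genes (4 with all 6). Without the filter on low values 2 listed genes were called, Psap and Gpnmb. The term for Y-linked transcripts, chosen after seeing the data, gave 894 calls over all genes, 19 among the other lysosome and autophagy genes, and 4 listed genes, with Ctsf and Gusb in place of Grn and Cln6. Same-numbered libraries did not deviate together (r of -0.03, 0.01 and 0.02 across genes), beside -0.13 to 0.17 for other pairs. Such values cannot show whether same-numbered libraries were prepared together, which is not known. With the replicate block 333 genes, 11 other lysosome and autophagy genes and 3 listed genes (without Grn) were called. Over 582 recomputed values of single genes, 500 kept their call or moved by less than the spread between replicates, 70 lost their call and 12 values of uncalled genes moved further, all 12 with the term for Y-linked transcripts. These values are those of the 34 listed genes and of the 11 others called with all 6 libraries, and none of these called genes changed sign. For Atp6v0c and Smpdl3b, called without wild-type replicate 3, that library lay below all Q-KO libraries. Wild-type replicates 1 and 2 lay above all of them, so the direction of both genes rested on that library. The unknown depth limits genes near 1 FPKM such as Naglu.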

Other observations

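Of the 200 other lysosome and autophagy genes, 18 had a mean under 1 FPKM and were not tested, and several of these are known from other tissues. The cathepsin genes Ctss, typical of antigen-presenting cells, and Ctsh were low in both groups. Ctss was at 0.0967 ± 0.0894 FPKM in wild-type against 0.0971 ± 0.0542 FPKM in Q-KO libraries. Ctsh was at 0.495 ± 0.176 FPKM in wild-type against 0.263 ± 0.127 FPKM in Q-KO libraries. Ctsk, the collagen-degrading cathepsin of osteoclasts, was at 0.0651, 0.0689 and 0.267 FPKM in wild-type against 0.719, 0.405 and 0.480 FPKM in Q-KO libraries, with every Q-KO library above every wild-type library but all under 1 FPKM. The pump subunit gene Atp6v0d2, also of osteoclasts, was at 0.0396 FPKM at most, and Lamp3, of dendritic cells, at 0.152 FPKM at most. Mcoln2 and Tfec, relatives of Mcoln1 and Tfeb, were 0 in each wild-type library and did not exceed 0.00741 FPKM in any Q-KO library.

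Among the tested pump genes, Atp6v0a4, a subunit known from kidney, had the lowest difference. It was at 1.72, 2.504 and 6.75 FPKM in wild-type against 0.579, 0.535 and 0.765 FPKM in Q-KO libraries (difference -1.37 with an SE of 0.36, limma adjusted p = 0.0777), named after its values were seen. Tcirg1, the osteoclast isoform of the same subunit, was at 5.82, 6.36 and 5.09 FPKM in wild-type against 7.81, 11.4 and 15.6 FPKM in Q-KO libraries (difference 0.86 with an SE of 0.23, limma adjusted p = 0.0862). Neither passed the threshold with all 6 libraries. Atp6v0a4, which passed the filter through its wild-type libraries, passed with quantile normalization, without wild-type replicate 3 and with the Y-linked term. Cd68, a lysosomal glycoprotein often used as a macrophage marker, was at 12.1, 14.9 and 20.5 FPKM in wild-type against 25.4, 37.5 and 52.8 FPKM in Q-KO libraries (difference 1.20 with an SE of 0.28, limma adjusted p = 0.0564) and did not pass with all 6 libraries, but did with the replicate block and without wild-type replicate 3 or Q-KO replicate 1.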
